A study of Mus musculus with 4 samples.

Results

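Cells make cholesterol from acetyl-CoA through the mevalonate pathway, and make fatty acids from the same acetyl-CoA through a separate set of enzymes. The genes of both pathways share a control system: the transcription factors SREBP1 and SREBP2 are held in the endoplasmic reticulum by their escort SCAP and the sterol-sensing INSIG proteins, and move to the nucleus when membrane sterol is low. In macrophages the system is known for its links to inflammatory signalling and to membrane lipid supply. The report covers 31 genes chosen by name for these roles, all of which were among the 14432 genes of the count table. They comprise 16 sterol synthesis enzymes, 6 regulators and carriers (Srebf1, Srebf2, Scap, Insig1, Insig2 and Stard4) and 9 fatty acid synthesis enzymes.

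The cells were macrophages matured in culture from primary mouse bone marrow (BMDMs) under M-CSF, the macrophage colony-stimulating factor (50 ng/mL). Donor mice were 8 to 12 weeks old and either Trpv4-null or C57BL/6J wild type, and cells were given lipopolysaccharide (LPS, a bacterial cell wall component that activates macrophages) at 100 ng/mL for 24 h or were left untreated. TRPV4 is a calcium-permeable channel opened by mechanical stretch and other stimuli. There were 4 droplet single-cell RNA libraries, 1 for each combination: labelled Trpv4-null with LPS, labelled Trpv4-null untreated, wild type with LPS and wild type untreated. The design text speaks of 3 mice per genotype and 12 samples, but no mouse is named for any cell, so each group was treated as 1 library. There is therefore no replicate check and no p-value anywhere below.

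The libraries held 6565, 5485, 8288 and 7028 cells in that order, 27366 in all, with 109030958, 47000669, 144090985 and 43731003 unique molecular identifiers (UMIs), each standing for 1 mRNA molecule. LPS libraries were deeper per cell, with median UMI counts of 16041 and 16673.5 against 7893 and 5660.5 in untreated libraries, for Trpv4-null-labelled and wild type cells in each pair. The median mitochondrial share of UMIs was 3.19% and 3.05% with LPS against 6.13% and 6.06% untreated, and the part of depth and of this share in the LPS results was not tested. Trpv4 itself went against the labels: it stood at 9.62 and 8.60 CPM (UMIs per 1000000 of the library) in the LPS and untreated libraries labelled Trpv4-null, against 2.07 and 5.83 CPM in wild type. Reads of 1 transcript end may lie outside the deleted part of the gene, so Trpv4 counts cannot settle the genotype. All 14 macrophage markers reached 20 CPM in every library. The 7 neutrophil markers in the table summed to 108 and 325 CPM in the LPS and untreated libraries labelled Trpv4-null, and 118 and 208 CPM in wild type. They did not move together. By library total, Csf3r was at least 2-fold higher with LPS in both genotypes, while S100a8 and S100a9 were at least 2-fold lower. Whether neutrophils were present, and their part in any result, was not tested. Of the 6 B cell markers, 3 were in the table and summed to 2.70 against 142 CPM with LPS and untreated in the libraries labelled Trpv4-null, and to 3.83 against 141 CPM in wild type. Nearly all of it was Ighm, at 0.0367 against 136.9 CPM and 0.104 against 133.98 CPM, while Cd79b stayed at 2.63 to 6.70 CPM and Ms4a1 at or near 0, and its part in the LPS results was not tested. Dendritic, T and stromal cell markers summed to at most 6.06 CPM in any library, and none of the 6 adipocyte markers was in the table. Library pairs shared 7 to 16 cell barcodes, at most 0.244% of a library.

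Upstream sequences of these genes were examined first, because sterol-responsive promoters are known to combine an SREBP site with sites for NF-Y (CCAAT) and Sp1 (GGGCGG). RefSeq promoter windows of build GRCm38.p6, running from 250 bases before to 50 bases after each start, were matched for 24 of the 31 genes (32 windows). Both strands were searched. CCAAT was found in 62.5% of these windows against 37.4% of all 32851 windows, GGGCGG in 71.9% against 35.7%, and both together in 46.9% against 12.8%. Among the 13 matched sterol enzymes, 11 held both, against 3 of 5 regulators and 1 of 6 fatty acid enzymes. The SREBP core TCACNCCAC was found in 1.24% of all windows and, among the 24 genes, in Hmgcs1 only. Only exact matches to this string were searched, so the count does not say which promoters lack an SREBP site. A stretch is shown for each of 4 genes, outside any annotated exon. Searched motifs are in capitals (ATTGG and CCGCCC are CCAAT and GGGCGG on the other strand). Shown are Hmgcs1 for the SREBP core, Hsd17b7 and Mvd as enzymes higher with LPS, and Insig1 as a regulator lower by library total. They lie at chr13:119690102-119690344 (plus strand), chr1:169969262-169969399 (minus), chr8:122443433-122443574 (minus) and chr5:28071171-28071303 (plus).
Hmgcs1: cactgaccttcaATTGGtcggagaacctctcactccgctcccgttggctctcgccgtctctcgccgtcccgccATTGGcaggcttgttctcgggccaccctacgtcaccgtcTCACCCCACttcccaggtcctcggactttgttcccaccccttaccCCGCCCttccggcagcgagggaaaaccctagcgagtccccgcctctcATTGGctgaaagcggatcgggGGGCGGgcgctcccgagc
Hsd17b7: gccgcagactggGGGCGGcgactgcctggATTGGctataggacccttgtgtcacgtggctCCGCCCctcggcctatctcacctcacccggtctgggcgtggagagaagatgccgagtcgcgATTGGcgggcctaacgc
Mvd: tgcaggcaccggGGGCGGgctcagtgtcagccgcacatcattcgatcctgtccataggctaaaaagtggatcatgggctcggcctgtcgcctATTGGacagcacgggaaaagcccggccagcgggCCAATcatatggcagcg
Insig1: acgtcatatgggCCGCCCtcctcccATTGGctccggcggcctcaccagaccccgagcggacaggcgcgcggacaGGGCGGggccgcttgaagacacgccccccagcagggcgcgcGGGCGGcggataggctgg
Hsd17b7, Mvd and Insig1 each carried both common motifs. These 3 genes were picked for display, and any link between motif content and values with LPS was not tested.

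The first comparison asks what LPS did to these genes within each genotype. Sterol enzyme mRNA held its share of the transcriptome or took more of it after LPS, while most genes took less. The 16 sterol enzymes summed to 457 CPM with LPS (95% Poisson interval 453 to 461) against 406 CPM untreated (400 to 411) in the libraries labelled Trpv4-null, and to 413 (410 to 417) against 364 CPM (358 to 370) in wild type. Regulators had the opposite order as shares of all UMIs, at 169 against 213 CPM and 167 against 203 CPM, though their log2 ratios of -0.33 and -0.28 become 0.27 and 0.25 with median-of-ratios scaling. Fatty acid enzymes summed to 203 against 192 CPM and 206 against 181 CPM, so as a sum they held their share too. With median-of-ratios scaling the log2 ratios of the fatty acid sum were 0.68 and 0.72, and those of the sterol sum 0.78 and 0.72. These sums hide very unequal members, as the plot of level by gene shows. Intervals here and below cover counting error only, and levels are not compared between genes because end-counted libraries do not put genes on 1 scale.

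**Figure D1:**
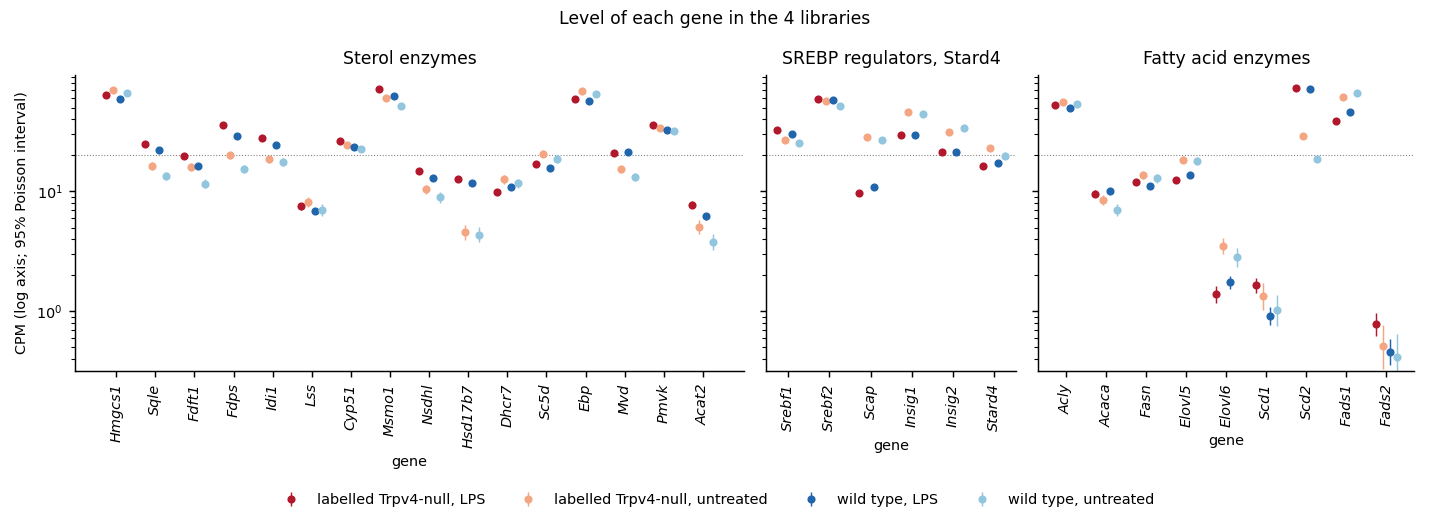
Level of each of the 31 genes in CPM (log axis) in the 4 libraries, with 95% Poisson intervals (counting error only); within a gene the points run from the library labelled Trpv4-null with LPS to wild type untreated, and the dotted line marks 20 CPM, the minimum in the higher library for a gene to be compared. Scd2 stands at 73.1 and 72.0 CPM in the LPS libraries, against 28.9 and 18.8 CPM in the untreated ones, and Scap shows the opposite order.

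The scale matters here. Ratios are log2 of CPM plus 1, LPS over untreated, and the median gene of the whole table lay at -0.42 in the libraries labelled Trpv4-null (6340 genes compared) and at -0.39 in wild type (6332 genes). The iron-storage gene Fth1 alone took 10.7% and 11.1% of UMIs in LPS libraries, against 3.60% and 3.94% in untreated ones, and its part in that shift was not tested. Under 2 other scalings, median-of-ratios and TMM, every sterol enzyme is higher with LPS, so a value is also given by its place among all compared genes, which a common scale factor leaves nearly in place. By library total all 16 sterol enzymes lay above the median gene in both genotypes. Under the 2 other scalings all did except Dhcr7 in the libraries labelled Trpv4-null. It had 0.24 against 0.25 for the median gene with median-of-ratios, and 0.21 against 0.22 with TMM. By library total the 10 sterol enzymes compared in the libraries labelled Trpv4-null (at least 20 CPM and 30 UMIs in the higher library) had a median log2 ratio of 0.18. They lay between the 58.1 and 91.1 percentile. The 9 compared in wild type had a median of 0.28 and lay between the 62.0 and 92.3 percentile.

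In pathway order, the early mevalonate enzymes did not move as 1 block. Acat2, which joins acetyl-CoA units, had 7.77 CPM with LPS against 5.06 CPM untreated in the libraries labelled Trpv4-null, and 6.21 against 3.77 CPM in wild type. Hmgcs1, which makes HMG-CoA, had 64.3 against 70.1 CPM and 59.1 against 66.8 CPM, log2 ratios of -0.12 and -0.18. Hmgcs1 was therefore a little lower with LPS as a share of all UMIs, but 0.29 and 0.21 above the median gene, and its sign turns under both other scalings. Pmvk, the phosphomevalonate kinase, had 36.0 against 33.9 CPM and 32.8 against 32.2 CPM, ratios of 1.06-fold (1.001 to 1.13) and 1.02-fold (0.961 to 1.08).

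The next steps, from mevalonate diphosphate to squalene epoxide, held the largest ratios of the compared sterol enzymes. Mvd, which decarboxylates mevalonate diphosphate, had 21.1 CPM with LPS against 15.3 CPM untreated in the libraries labelled Trpv4-null, and 21.4 against 13.3 CPM in wild type. Idi1, the isopentenyl diphosphate isomerase, had 28.1 against 18.6 CPM and 24.3 against 17.7 CPM. Fdps (GRCm38, chr3:89093588-89101959, minus strand), which makes farnesyl diphosphate for sterols and for protein prenylation alike, had 36.2 against 20.1 CPM and 29.1 against 15.3 CPM. The Fdps ratio was 1.80-fold (1.68 to 1.93) in the libraries labelled Trpv4-null and 1.90-fold (1.75 to 2.06) in wild type, at the 91.1 and 92.3 percentile of all compared genes. Sqle, the squalene epoxidase and a rate-controlling step, had 24.8 against 16.4 CPM and 22.3 against 13.4 CPM, ratios of 1.52-fold (1.40 to 1.64) and 1.66-fold (1.52 to 1.82). Fdft1, the squalene synthase between Fdps and Sqle, had 19.8 against 16 CPM and 16.4 against 11.6 CPM, but it overlaps the opposite-strand gene Ctsb. Ctsb carried 545029 and 306054 UMIs in the LPS and untreated libraries labelled Trpv4-null and 681055 and 291401 in wild type, and nothing says whether the counting used strand, so Fdft1 values are uncertain.

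Mvd, Idi1, Fdps and Sqle were the 4 compared sterol enzymes at least 25% higher with LPS, in each genotype. The background is 17.6% of all compared genes in the libraries labelled Trpv4-null and 16.4% in wild type. None of the compared sterol enzymes was at least 20% lower (the same fold downward), where 55.0% and 53.9% of all genes were. By library total none reached 2-fold either way, against 7.3% of genes higher and 21.3% lower in the libraries labelled Trpv4-null, and 6.9% and 17.7% in wild type. These counts depend on the scaling. With median-of-ratios scaling, Sqle, Fdps, Idi1 and Mvd were at least 2-fold higher in the libraries labelled Trpv4-null (4 of 11 compared, against 16.6% of all genes) and Sqle, Fdps and Mvd in wild type (3 of 9, against 14.1%), and none was 2-fold lower, against 7.3% and 6.38%. At 25% higher they numbered 10 of 11 and 9 of 9, against 46.4% and 42.1% of all genes, and none was at least 20% lower, against 22.3% and 22.2%.

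The later enzymes, which turn lanosterol into cholesterol, split between higher and lower. Lss, which closes the sterol rings, had 7.54 CPM with LPS against 8.19 CPM untreated in the libraries labelled Trpv4-null and 6.86 against 6.997 CPM in wild type, and both intervals of its ratio include 1. Cyp51, the lanosterol demethylase, had 26.5 against 24.3 CPM and 23.3 against 22.7 CPM. Msmo1, the methylsterol oxidase, had 71.6 against 60.7 CPM and 62.9 against 51.8 CPM, ratios of 1.18-fold (1.13 to 1.23) and 1.22-fold (1.16 to 1.27). Nsdhl, which works at the same C4 demethylation, had 14.8 against 10.4 CPM and 13.0 against 8.94 CPM. Cyp51 overlaps the opposite-strand gene Akap9, which carried 2280 to 3943 UMIs per library.

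Hsd17b7, the ketoreductase of C4 demethylation, showed the largest ratio of any sterol enzyme. It had 12.7 CPM with LPS against 4.55 CPM untreated in the libraries labelled Trpv4-null, and 11.8 against 4.37 CPM in wild type. That is 2.80-fold (2.42 to 3.25) and 2.70-fold (2.32 to 3.15), though the gene stayed under 20 CPM and was not counted among the compared genes. Hsd17b7 was higher with LPS in all 8 clusters of both genotypes, by 0.97 to 2.22 on the log2 scale in Trpv4-null-labelled cells and 0.78 to 1.80 in wild type cells.

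The last enzymes were slightly lower with LPS per total UMIs but above the median gene, and their signs turn under the other scalings. Under those scalings Dhcr7 in the libraries labelled Trpv4-null lay just below the median gene. Ebp, the sterol isomerase, had 59.2 CPM with LPS against 68.7 CPM untreated in the libraries labelled Trpv4-null, and 56.8 against 64.6 CPM in wild type. Sc5d, the lathosterol desaturase, had 17.1 against 20.7 CPM and 15.8 against 18.7 CPM. Dhcr7, which makes cholesterol from its 7-dehydro precursor, had 9.86 against 12.6 CPM and 11 against 11.7 CPM. These 3 late enzymes thus lay nearer the median gene than Fdps, Sqle, Mvd, Idi1 and Hsd17b7, as the plot of LPS ratios shows.

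**Figure D2:**
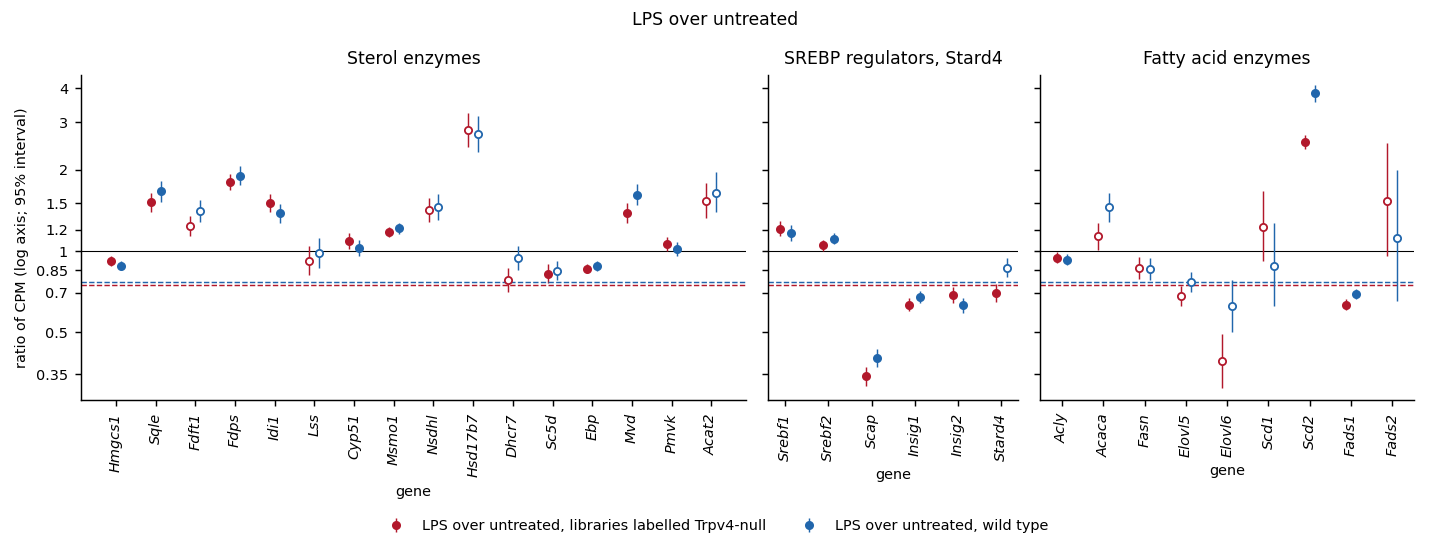
Ratio of CPM, LPS over untreated (log axis), for each gene in the libraries labelled Trpv4-null (red, left) and in wild type (blue, right), with 95% intervals of the count ratio; open points are genes under the 20 CPM minimum and dashed lines mark the median of all compared genes. All 16 sterol enzymes lie above the dashed lines in both genotypes, Scap lies far below them, and the Scd2 ratio is 2.53-fold in the libraries labelled Trpv4-null and 3.83-fold in wild type; points of sterol enzymes between 1 and the dashed lines pass to above 1 under the 2 other scalings.

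Among the regulators, the SREBP genes and the genes that hold SREBP back stood apart. Srebf1, the SREBP1 gene, had 32.3 CPM with LPS against 26.8 CPM untreated in the libraries labelled Trpv4-null, and 29.9 against 25.6 CPM in wild type. Srebf2, the SREBP2 gene, had 59.5 against 56.7 CPM and 57.7 against 52.0 CPM. Both were higher with LPS in both genotypes under every scaling, by less than 25% by library total. With median-of-ratios scaling the log2 ratios were 0.85 and 0.73 for Srebf1 and 0.67 and 0.67 for Srebf2. Srebf1 overlaps the opposite-strand gene Rai1, which carried 681 to 1148 UMIs per library.

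Scap (GRCm38, chr9:110333288-110384950, plus strand), the escort that carries SREBP out of the endoplasmic reticulum, was the only regulator past 2-fold by library total. That is 1 of 6 compared regulators in the libraries labelled Trpv4-null and 1 of 5 in wild type. By the same measure 21.3% and 17.7% of all genes were at least 2-fold lower. With median-of-ratios scaling no regulator was, against 7.3% and 6.38% of all genes. Scap had 9.73 CPM with LPS against 28.3 CPM untreated in the libraries labelled Trpv4-null, and 10.9 against 27.2 CPM in wild type. The log2 ratios were -1.45 and -1.24, which places Scap at the 9.89 and 11.2 percentile of compared genes, and they were -0.88 and -0.74 with median-of-ratios scaling. Scap was lower with LPS in all 8 clusters of both genotypes, a count that was not taken over all genes. With every cell thinned to 3000 UMIs, 3.07% of cells had a Scap UMI with LPS against 8.23% untreated in the libraries labelled Trpv4-null, and 3.18% against 8.14% in wild type. Without thinning, at unequal depths, the shares were 14.8% against 21.2% and 16.9% against 15.5%, so the order in wild type turns with depth. No cell type that should lack these genes was available to give the share that free RNA contributes.

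The INSIG genes, which retain SCAP and are themselves sterol-responsive (Insig1) or not (Insig2), were also lower. Insig1 had 29.4 CPM with LPS against 46.4 CPM untreated in the libraries labelled Trpv4-null, and 29.9 against 44.2 CPM in wild type. Its log2 ratios of -0.64 and -0.55 lay near the median gene and shrank to -0.05 and -0.03 with median-of-ratios scaling. Insig2 had 21.4 against 31.1 CPM and 21.3 against 33.9 CPM, lower by -0.52 and -0.64, and its sign turns under both other scalings in the libraries labelled Trpv4-null. Stard4, a cytosolic sterol carrier, had 16.2 against 23.2 CPM and 17.3 against 19.9 CPM, and its sign turns under both other scalings in both genotypes. Counting Scap, 4 of the 6 compared regulators were at least 20% lower with LPS in the libraries labelled Trpv4-null and 3 of 5 in wild type, shares close to the 55.0% and 53.9% of all genes.

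The fatty acid enzymes were led by Scd2 (GRCm38, chr19:44293674-44306864, plus strand), a stearoyl-CoA desaturase that makes monounsaturated fatty acids. Scd2 had 73.1 CPM with LPS against 28.9 CPM untreated in the libraries labelled Trpv4-null, and 72.0 against 18.8 CPM in wild type. That is 2.53-fold (2.38 to 2.68) and 3.83-fold (3.57 to 4.12), at the 94.5 and 96.7 percentile. Both LPS libraries reached the same level, and the untreated libraries did not. Among cells thinned to 3000 UMIs, 18.4% had a Scd2 UMI with LPS against 7.35% untreated in the libraries labelled Trpv4-null and 18.4% against 4.90% in wild type, and unthinned shares were 53.7% against 18.03% and 55.1% against 9.46%. Scd1, a close relative nearby on chromosome 19, was low at 1.65 against 1.34 CPM and 0.909 against 1.03 CPM, and counting may split reads between such relatives.

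The enzymes that build the fatty acid chain differed far less than Scd2. Acly, which makes cytosolic acetyl-CoA from citrate for both pathways, had 52.7 CPM with LPS against 55.9 CPM untreated in the libraries labelled Trpv4-null, and 49.5 against 53.4 CPM in wild type. Acaca, the acetyl-CoA carboxylase, had 9.59 against 8.47 CPM and 10.2 against 7.02 CPM. Fasn, the fatty acid synthase, had 11.97 against 13.9 CPM and 11.03 against 12.9 CPM. The signs of Acly and Fasn turn under the other scalings, while Acaca was higher with LPS under all of them.

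Of the other elongation and desaturation genes, Fads1, Elovl5 and Elovl6 were lower by library total. Fads1, the delta-5 desaturase of polyunsaturated fatty acids, had 38.8 CPM with LPS against 61.4 CPM untreated in the libraries labelled Trpv4-null, and 46.0 against 66.4 CPM in wild type. Its ratios were 0.633 (0.603 to 0.664) and 0.693 (0.664 to 0.724), lower in all 8 clusters of both genotypes, although the wild type log2 ratio becomes 0.0041 with median-of-ratios scaling. Elovl5, a polyunsaturated fatty acid elongase, had 12.5 against 18.4 CPM and 13.8 against 17.97 CPM, with signs that turn under the other scalings. Elovl6, which elongates palmitate, had 1.38 against 3.53 CPM and 1.76 against 2.81 CPM, and Fads2, the delta-6 desaturase, stayed under 1 CPM in every library, at 0.780 against 0.511 CPM and 0.458 against 0.412 CPM. Of the 3 compared fatty acid enzymes (Acly, Scd2 and Fads1), Scd2 was at least 2-fold higher, where 7.3% and 6.9% of all genes were, and Fads1 at least 20% lower, as were 55.0% and 53.9%. Fads1 does not pass with median-of-ratios scaling, at -0.05 and 0.0041. Their median log2 ratio of -0.08 and -0.11 rests on Acly, and their median place was the 66.9 and 66.05 percentile of compared genes. Of all 9 fatty acid enzymes, 6 and 7 lay above the median gene by library total.

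Other genes of the pathways, chosen by name, give the surroundings. Their counts are by library total, where 7.3% and 6.9% of all genes were at least 2-fold higher and 21.3% and 17.7% lower. Of 10 compared genes for fatty acid synthesis and activation, 3 were at least 2-fold higher with LPS in each genotype and none lower: the acyl-CoA synthetases Acsl1 and Acsl5, and Hsd17b12, a reductase of the elongation cycle. Acsl1 had 469.8 CPM with LPS against 27.4 CPM untreated in the libraries labelled Trpv4-null and 486.7 against 33.7 CPM in wild type. Of 3 compared genes for oxysterols and sterol esters, Cyp27a1, the sterol 27-hydroxylase, and Nceh1, a cholesteryl ester hydrolase, were at least 2-fold lower. Cyp27a1 had 4.30 against 68.8 CPM and 4.91 against 59.1 CPM. Lbr, which doubles as a sterol reductase, had 14.1 against 57.3 CPM and 15.3 against 47.6 CPM, and was the only one of 7 and 6 other compared sterol and isoprenoid enzymes 2-fold apart. Mbtps1, the first protease to cut SREBP, had 16.8 against 44.6 CPM and 21.3 against 44.7 CPM, the only one of 7 and 8 other compared processing and sensing genes. Of 5 LXR receptors and targets, Nr1h3 was at least 2-fold higher and Mylip, a ubiquitin ligase, at least 2-fold lower. With median-of-ratios scaling Nceh1 (log2 -0.42 and -0.71), Mbtps1 (-0.77 and -0.52) and Mylip (-0.94 and -0.94) were no longer 2-fold apart. Lbr, Cyp27a1, Acsl1, Acsl5, Hsd17b12 and Nr1h3 still were. Of the same lists, Mvk (1.105 and 1.03), Tmem97 (1.13 and 1.12) and Acsl4 (1.38 and 1.21) came to be at least 2-fold higher in both genotypes. Elovl1 did so in the libraries labelled Trpv4-null only (1.07 and 0.86). With that scaling 16.6% and 14.1% of all genes were at least 2-fold higher. Nr1h3, the sterol-sensing receptor LXR-alpha, had 104.7 against 7.98 CPM and 102.6 against 12.7 CPM. Its target Abca1, the cholesterol exporter, had 247.7 against 445.2 CPM and 299.8 against 472.1 CPM. The Abca1 log2 ratios of -0.84 and -0.65 shrank to -0.24 and -0.12 with median-of-ratios scaling. Abcg1, also on the list of LXR targets, had -0.0064 and -0.26 by library total, and 0.60 and 0.26 with median-of-ratios scaling. Ch25h, which makes the SREBP-suppressing 25-hydroxycholesterol, was low, at 3.49 against 0.0851 CPM and 1.76 against 0.114 CPM.

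The second comparison asks whether the library labelled Trpv4-null differed from wild type at the same treatment. The differences were small and mostly in 1 direction for the sterol enzymes. After LPS, 14 of the 16 were higher in the library labelled Trpv4-null than in wild type, under every setting tried, and the 9 compared had a median log2 ratio of 0.15 against -0.043 over all 5236 compared genes. Untreated, all 16 were higher (15 of them under every setting), and the 7 compared had a median of 0.094 against -0.023 over all 6156 genes. Of the compared enzymes, 8 of 9 lay above 0 after LPS, against 1956 of 5236 genes, and 7 of 7 untreated, against 2609 of 6156. The counting interval lay above 1 for 14 enzymes and below 1 for Dhcr7 after LPS. In untreated cells it lay above 1 for 10 and below 1 for none. Such intervals were not counted over all genes, so these interval counts have no background to be read against.

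**Figure D3:**
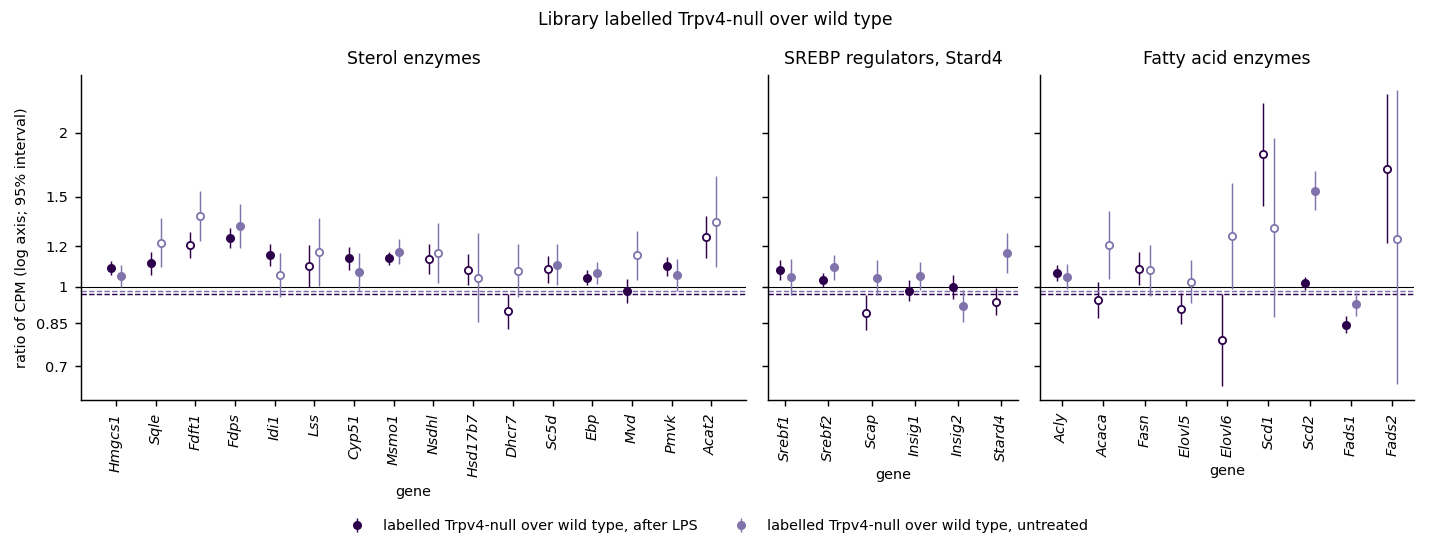
Ratio of CPM, library labelled Trpv4-null over wild type (log axis), after LPS (dark, left) and untreated (light, right), with 95% intervals of the count ratio; open points are genes under the 20 CPM minimum and dashed lines mark the median of all compared genes. Most sterol enzymes lie between 1 and 1.4, Dhcr7 crosses 1 between treatments, and Scd2 is 1.54-fold in untreated cells and 1.02-fold after LPS; no sterol enzyme sign turns with scaling in untreated cells, and Mvd after LPS does.

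Fdps had 36.2 CPM in the library labelled Trpv4-null against 29.1 CPM in wild type after LPS, and 20.1 against 15.3 CPM untreated, ratios of 1.246-fold (1.19 to 1.30) and 1.31-fold (1.19 to 1.45). Fdps was higher in the library labelled Trpv4-null in all 8 clusters after LPS and in the 7 clusters with enough counts untreated. Msmo1 followed at 71.6 against 62.9 CPM and 60.7 against 51.8 CPM, higher in 8 of 8 clusters at either treatment. Clusters of 1 library share its culture and preparation, so such counts are not repeats, and they were not taken over all genes. The exceptions after LPS were Dhcr7, at 9.86 against 11 CPM and at 12.6 against 11.7 CPM untreated, and Mvd, at 21.1 against 21.4 CPM and at 15.3 against 13.3 CPM untreated.

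Set against all genes, these sizes were modest. No member reached 2-fold, where 0.134% of genes were higher and 0.0573% lower after LPS, and 0.146% higher and 0.146% lower untreated. At 25% higher or 20% lower, no compared member passed after LPS, against 3.04% of genes higher and 2.56% lower. In untreated cells Fdps and Scd2 passed, against 3.41% of genes higher and 3.01% lower. With 1 library per group, a difference between genotypes cannot be told apart from one between cultures or library preparations.

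Scd2 differed between the untreated libraries. It had 28.9 CPM in the library labelled Trpv4-null against 18.8 CPM in wild type untreated, 1.54-fold (1.41 to 1.68), and 73.1 against 72.0 CPM after LPS, 1.02-fold (0.986 to 1.05). It was higher in the untreated library labelled Trpv4-null in all 7 clusters with enough counts, by 0.037 to 1.33 on the log2 scale. The Proliferating cluster, where untreated Scd2 is highest, made up 9.88% of untreated cells labelled Trpv4-null against 5.99% in wild type, and without that cluster the Scd2 log2 ratio was 0.54 in place of 0.60. Fads1 was lower in the library labelled Trpv4-null, at 38.8 against 46.0 CPM after LPS and 61.4 against 66.4 CPM untreated, and after LPS it was lower in all 8 clusters.

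The LPS response itself was compared as the log2 ratio in the libraries labelled Trpv4-null minus that in wild type. Over 6471 genes the median difference was -0.037, with 90% of genes between -0.35 and 0.29, and the medians were -0.03 for 10 sterol enzymes and -0.13 for 3 fatty acid enzymes. Scd2 lay outside that range at -0.58 (counting interval -0.71 to -0.44). Stard4 had -0.30 (-0.46 to -0.14), Acaca -0.32 (-0.56 to -0.07) and Scap -0.21 (-0.37 to -0.05), all inside it. Among the sterol enzymes, Dhcr7 had -0.24 (-0.45 to -0.04) and Mvd -0.21 (-0.39 to -0.04), and among the fatty acid enzymes Fads1 had -0.13 (-0.22 to -0.04), also inside it. Elovl6, at under 4 CPM, had -0.46 (-0.90 to -0.01).

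The authors' clusters differed in these genes. Of the 9 named clusters, 8 had at least 100 cells in each library. The sterol sum of the highest cluster was 1.68-fold that of the lowest with LPS against 1.28-fold untreated in cells labelled Trpv4-null, and 1.46-fold against 1.40-fold in wild type. After LPS, summed sterol enzyme levels were highest in the Tmem176+ cluster, at 618 CPM labelled Trpv4-null against 514 CPM wild type, and lowest in the Ifit1bl1+ Cmpk2+ cluster, named for interferon-induced genes, at 369 against 352 CPM. In untreated cells the Il1b+ Cxcl2+ cluster was highest, at 455 against 418 CPM. Fatty acid enzymes after LPS had the same extremes, at 292 against 258 CPM in Tmem176+ and 126 against 142 CPM in Ifit1bl1+ Cmpk2+.

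**Figure D4:**
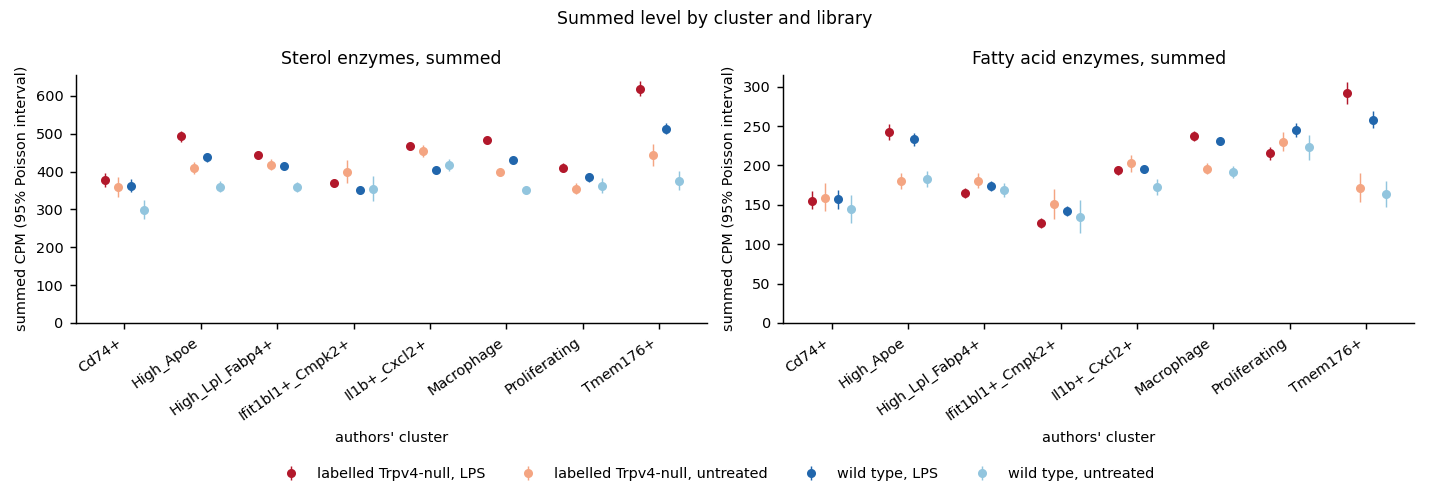
Summed CPM of the 16 sterol enzymes (left) and the 9 fatty acid enzymes (right) in each of 8 clusters named by the authors, for the 4 libraries, with 95% Poisson intervals (counting error only). The Tmem176+ cluster is highest after LPS in both panels, at 618 and 514 CPM for sterol enzymes, and the sterol sum of the library labelled Trpv4-null lies above wild type in all 8 clusters after LPS.

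Within clusters, the sterol sum was higher in cells labelled Trpv4-null than in wild type in 8 of 8 clusters after LPS (log2 0.057 to 0.27) and in 7 of 8 untreated, the exception being Proliferating at -0.033. Scd2 was higher with LPS in all 8 clusters of both genotypes, by very unequal amounts. With LPS it had 134.4 CPM in Tmem176+ cells labelled Trpv4-null and 109.2 CPM in wild type, against 16.6 and 16.2 CPM in untreated cells of that cluster. In the Proliferating cluster it had 67.6 CPM with LPS against 63.4 CPM untreated in cells labelled Trpv4-null, and 71.6 against 51.4 CPM in wild type. The order of clusters for Scd2 thus changed: Proliferating was highest untreated, and Tmem176+ was highest with LPS.

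Fasn differed in direction between clusters, higher with LPS in 3 of 8 in cells labelled Trpv4-null and in 3 of 7 with enough counts in wild type. In Tmem176+ cells it had 20.4 CPM with LPS against 12.0 CPM untreated in cells labelled Trpv4-null, and 15.8 against 10.8 CPM in wild type. In Ifit1bl1+ Cmpk2+ cells it had 4.12 against 9.40 CPM and 5.32 against 11.3 CPM. Its log2 ratio over all cells, -0.20 and -0.20 against -0.42 and -0.39 for the median gene, therefore covers higher and lower clusters. Untreated Ifit1bl1+ Cmpk2+ cells numbered 179 and 177, so their Fasn values rest on few counts.

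The members were then compared among cells of 1 library. Cells were thinned to 3000 UMIs and, for each gene, those with 2 or more UMIs of the other sterol enzymes were set against those with 0. Sterol enzymes were higher in the first set: 15, 15, 15 and 13 of 16 lay above the 95th percentile of all other compared genes in the libraries labelled Trpv4-null with LPS and untreated and in wild type with LPS and untreated. These counts pool all clusters, which differ in sterol sums. Within the Macrophage cluster alone they were 14, 12, 15 and 12. Members under 20 CPM were judged by the same percentile, which comes from genes of at least 20 CPM. Sqle had log2 differences of 1.08, 1.24, 0.74 and 1.14 in that order, and Cyp51 1.07, 0.98, 0.93 and 1.07. Ebp was the constant exception, at 0.01, 0.06, -0.02 and 0.01.

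**Figure D5:**
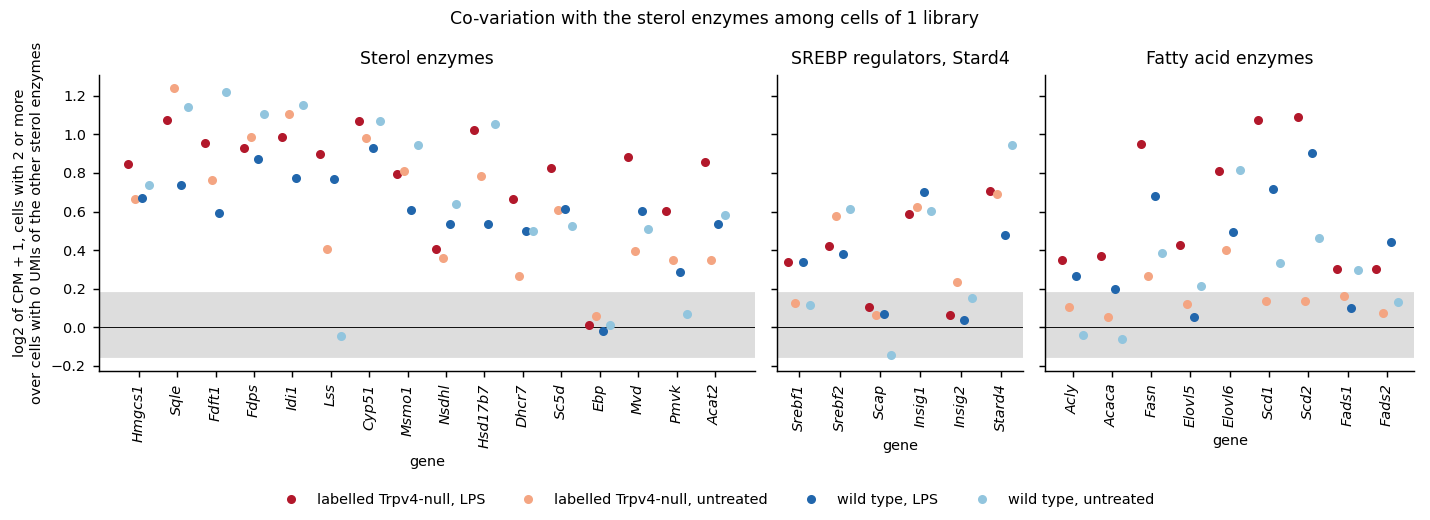
Log2 difference in CPM plus 1 between cells with 2 or more and cells with 0 UMIs of the other sterol enzymes (thinned to 3000 UMIs), for each gene in the 4 libraries; the grey band spans the lowest 5th to the highest 95th percentile of all other compared genes. Most sterol enzymes, Insig1, Stard4 and Srebf2 lie above the band in all libraries, Ebp and Scap lie inside it, and Scd2 reaches 1.09 and 0.90 with LPS against 0.13 and 0.46 untreated.

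Insig1, Stard4 and Srebf2 lay above the 95th percentile in every library, at 0.58, 0.62, 0.70 and 0.60 for Insig1, 0.70, 0.69, 0.48 and 0.94 for Stard4 and 0.42, 0.58, 0.38 and 0.61 for Srebf2. Scap did not, at 0.10, 0.07, 0.07 and -0.14. Of the fatty acid enzymes, 9 of 9 lay above the 95th percentile with LPS against 3 of 9 untreated in the libraries labelled Trpv4-null, and 7 against 6 of 9 in wild type. Within the Macrophage cluster alone these counts were 7 against 3 and 6 against 4. They include Elovl6, Scd1 and Fads2, whose low counts make them noisier than the genes of at least 20 CPM behind the percentile. Scd2 had 1.09 with LPS against 0.13 untreated in the libraries labelled Trpv4-null and 0.90 against 0.46 in wild type, and Fasn 0.95 against 0.26 and 0.68 against 0.39.

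As a description, the correlation across cells of summed sterol with summed fatty acid UMIs was 0.17 with LPS (6472 cells) against 0.05 untreated (5276 cells) in the libraries labelled Trpv4-null, and 0.14 (8166 cells) against 0.04 (6362 cells) in wild type. Between the odd- and even-placed sterol enzymes of the list it was 0.18 against 0.14 and 0.15 against 0.12. These are weak values in sparse counts, and the cells share a library. Within the Macrophage cluster alone the sterol with fatty acid values were 0.19 against 0.03 and 0.15 against 0.04.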

How the data were processed

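UMI counts were whole numbers per gene and cell, deposited without normalization for 14432 genes and 27366 cells, and the deposited annotation gave each cell's library, the authors' cluster name and the fraction of mitochondrial UMIs. The mm10 build, R 4.2, Seurat 4 and Cell Ranger 3.1.0 are named in the submitters' processing notes. What cells the authors filtered out, with which strand setting they counted and whether they removed doublets is not given in the sources used here. No doublets were called. Cells kept had 1003 to 39987 UMIs.

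UMIs were summed per library and scaled to CPM by library total. Log2 ratios used a pseudocount of 1 CPM, which understates ratios of low genes, and genes were compared from 20 CPM and 30 UMIs in the higher library. CPM intervals are exact Poisson and share intervals exact binomial (Clopper-Pearson), ratio intervals exact conditional, all at 95% and for counting error only. Sizes of 2-fold, and of 25% higher or 20% lower, are not tests. Clusters needed 100 cells per library, and counts of clusters were made for the members only, not over all genes. Ratio code was tested on simulated data. Positions came from GENCODE (GRCm38), promoters from RefSeq (GRCm38.p6). Scripts used scipy 1.17.1, numpy 2.4.6 and pandas 2.3.3 under Python 3.11.15, and edgeR 4.0.16 under R 4.3.3 for TMM factors. All 31 members were named. Other pathway genes were named at 2-fold or more, with Ch25h and Trpv4 in any case, and Abca1 and Abcg1 were added after their values were seen. The members and lists were chosen with earlier results of these data known. The comparison of cells by their other sterol UMIs was added after the data were seen.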

Additional observations from a re-analysis of the deposited data

Results flagged for a closer look

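Stard4, the sterol carrier, differed between genotypes in opposite directions at the 2 treatments. It had 16.2 CPM in the library labelled Trpv4-null against 17.3 CPM in wild type after LPS (0.936-fold, 0.880 to 0.996), and 23.2 against 19.9 CPM untreated (1.17-fold, 1.07 to 1.28). The log2 ratios of -0.09 and 0.21 lie 0.30 apart, each with a counting interval on its own side of 1, and the difference has no test because each group is 1 library.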

How the results depend on the processing

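Scaling changed the LPS comparisons most. With median-of-ratios and TMM scaling the sterol median log2 ratio was 0.84 and 0.81 in the libraries labelled Trpv4-null (0.18 by total) and 0.80 and 0.79 in wild type (0.28), and it was 0.26 and 0.36 without a filter and 0.28 and 0.35 from the mean of each cell's CPM. The fatty acid median turned from -0.08 to 0.52 and 0.49 in the libraries labelled Trpv4-null, and from -0.11 to 0.41 and 0.41 in wild type, where equal weight per cluster gave 0.0055. The median gene moved with them, to 0.25 and 0.22, and 0.19 and 0.18. Genes 2-fold higher and lower numbered 463 and 1348 by total (25.6% higher) in the libraries labelled Trpv4-null, against 1031 and 453 (69.5%) with median-of-ratios and 986 and 466 (67.9%) with TMM, and in wild type 437 and 1121 (28.05%), against 864 and 391 (68.8%) and 848 and 392 (68.4%). Without a filter they numbered 704 and 2568, and 665 and 2016. Between genotypes, the fatty acid median was 0.17 with equal cluster weight untreated (0.065), and 0.099, 0.088 and 0.070 after LPS with median-of-ratios, TMM and equal weight (0.022). The sterol medians there stayed between 0.081 and 0.16 untreated and between 0.14 and 0.22 after LPS. Genes at least 2-fold apart after LPS numbered 7 higher and 3 lower, against 17 and 13 without a filter, and untreated 9 and 9, against 27 and 22. The causes were not tested. No paired analysis was possible because each group is 1 library with no replicate number shared across groups, and for the same reason no replicate could be left out. Low counts limit Elovl6, Scd1 and Fads2.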
